A study of Sus scrofa with 6 samples.

Results

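The growth hormone and insulin-like growth factor (IGF) axis was examined in the backfat of male pigs, intact (boars) or castrated (barrows), through the ligands IGF1 and IGF2, the receptors GHR and IGF1R, the transcription factor STAT5B and the binding proteins IGFBP2, IGFBP3, IGFBP4 and IGFBP5. A probe set of the Affymetrix Porcine array was counted as a member when the platform annotation gave it one of these 9 symbols and no other. This chose 23 of 24123 probe sets, which covered 7 of the 6765 genes named on the array. IGF2 had 13 of them, IGF1 3, IGF1R and STAT5B 2 each, and GHR, IGFBP2 and IGFBP5 1 each. Probe sets of a gene are numbered from 1 in order of falling mean signal. No probe set carried the single symbol IGFBP3 or IGFBP4, so these 2 genes were not analysed here.

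All animals were crossbreds of Pietrain sires with Landrace dams, taken as 15 pairs of full sibs, 30 male piglets in all. In each pair both testicles of 1 piglet were removed under anesthesia at 7 days of age and the other piglet stayed intact. All were weaned at 30 days, fed without restriction and killed at 175 days, when the middle layer of backfat at rib 6 was frozen. Each of the 3 boar and 3 barrow arrays measured RNA pooled from 5 animals, so the error given below is the spread between pools and not between single pigs.

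Growth hormone from the pituitary binds its receptor GHR on liver, fat and muscle, and the bound receptor works through the kinase JAK2 and the factors STAT5A and STAT5B, whose known targets include IGF1. IGF1 and IGF2 act on the receptor IGF1R, which passes the signal through adaptor proteins to the kinases AKT1 and AKT2, while IGF2R takes up IGF2 without such a signal. IGF binding proteins hold the ligands in blood and tissue. Fat makes both ligands locally, in stromal cells, macrophages and adipocytes, and growth hormone is known for promoting the release of stored fat. IGF2 is an imprinted gene, expressed mainly from the paternal copy.

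Values are signal intensities on a linear scale, and differences are barrow minus boar in log2(signal + 16), which understates the change of dim probe sets. Across all tested probe sets 2 arrays of a kind correlated at 0.978 to 0.988 and 2 of different kinds at 0.975 to 0.983. The labelled tissue was checked by its markers. The summed signal of the 9 tested adipocyte markers of 10 listed was 92155 to 97611 in boars and 88036 to 96933 in barrows. In the test given below 1 of the 9, the leptin gene LEP, was called higher in barrows (0.58, limma adjusted p = 0.021). That test called 1.16% of all tested probe sets. Of all 9, 5 had a difference above 0 and 4 below. Of 4 skeletal muscle and 3 liver markers with a probe set, 0 lay among the brighter 60% of probe sets that were tested, and their highest signal on any array was 117, for albumin.

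No member passed the test between barrows and boars. Of the 23 probe sets, 15 of 6 genes were tested. At an adjusted p under 0.05 (limma, Benjamini-Hochberg over all 14399 tested probe sets) 0 of the 15 were called, where 1.16% of all tested probe sets were. At an unadjusted p under 0.05 there was 1 member, 6.67% of the 15, against 12.2% of all tested. The groups overlapped in all 15, while 18.1% of all tested probe sets had groups that did not overlap. The median difference of the 15 was 0.01, with 8 above 0 and 7 below 0, and over all tested probe sets it was -0.01. The differences ran from -0.37 for IGF1 to 0.19 for a probe set of IGF2, and 0 of the 15 were called with the replicate number as a block (background 2.35%). With 3 pools a side the median 95% interval of the members, before adjustment, reached 0.27 to each side of the difference. It is not a detection limit, since intervals varied by probe set and -0.37 for IGF1 did not pass after adjustment. The lack of a call therefore does not show equal levels.

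**Figure D1:**
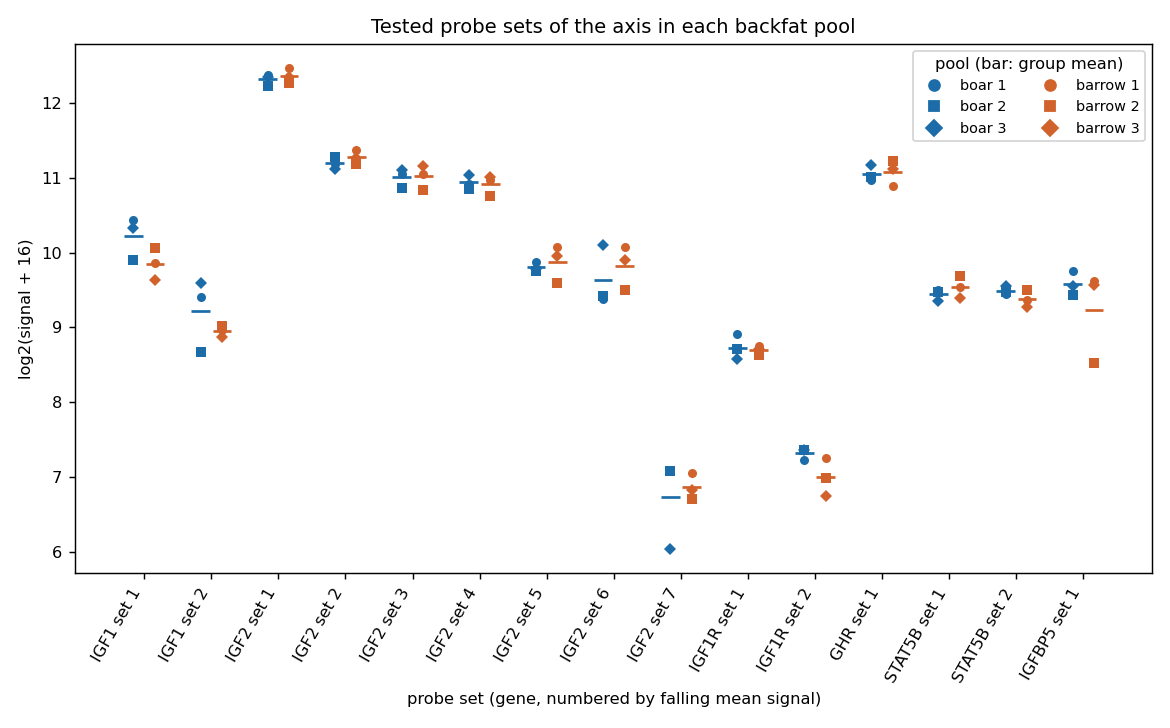
The vertical axis gives log2(signal + 16) and the horizontal axis the 15 tested probe sets, numbered within each gene by falling mean signal. Each symbol is a pool of 5 animals (blue for boars, orange for barrows) and each bar a group mean, and the symbols of both groups overlap for every probe set.

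Among the ligands, IGF1 gave the member difference farthest from 0. IGF1 encodes the growth factor that carries much of the effect of growth hormone on tissues. In its probe set 1, the brightest, the boar pools had signals of 1362, 936.5 and 1274, and the barrow pools 917.7, 1052 and 775.9. The highest barrow pool thus exceeded the lowest boar pool, and 2 boar pools stood above all 3 barrow pools. The mean was 1191 ± 224.6 in boars and 915.3 ± 138.3 in barrows (SD over n = 3 pools each). The log2 difference was -0.37 (95% interval -0.7 to -0.03, limma adjusted p = 0.36), which is 1.29-fold higher in boars.

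IGF1 probe set 2 had boar signals of 663.7, 392 and 757.4 and barrow signals of 485.8, 504.7 and 452.9. All 3 barrow pools lay between the lowest boar pool and the other two. Its means were 604.4 ± 189.8 and 481.1 ± 26.22 (SD over n = 3 pools each) and its log2 difference was -0.27 (95% interval -0.71 to 0.17, limma adjusted p = 0.65). Both probe sets are annotated to 1 transcript record, so they are not separate evidence on the gene. They shared the order of their extremes: boar pool 2 was the lowest boar in both, and barrow pool 2 the highest barrow in both. Without boar replicate 2 the differences were -0.53 and -0.55 (limma adjusted p = 0.11 and 0.077). Without boar replicate 3 that of probe set 2 was -0.08 (limma adjusted p = 0.95).

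The third probe set of IGF1 was dim, with signals of 11.57 to 72.07 in boars and 12.05 to 46.31 in barrows, and fell below the filter.

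Markers of macrophages, one of the sources of IGF1 in tissue, had a summed signal of 9363, 7234 and 8377 in boar pools 1 to 3 and of 8036, 6658 and 7048 in barrow pools 1 to 3, over 6 tested markers of 10 listed. Boar pool 2, the lowest boar in IGF1, was also the lowest boar in this sum, and barrow pool 2, the highest barrow in IGF1, was the lowest barrow. Of the 6 markers 5 had a difference below 0 and 0 were called. The differences farthest below 0 were those of C1QA and TYROBP (-0.44 and -0.39, limma adjusted p = 0.13 and 0.14). CD163 went the other way, with 0.15 (limma adjusted p = 0.69). When blocked by replicate number C1QA alone passed (limma adjusted p = 0.035), where 2.35% of all tested probe sets did. None of the 6 stood near 0 on any array, and CD14, the dimmest in boars, had 187.1 to 277.2. Their part in the IGF1 values was not tested. In whole tissue, fewer cells of a type and less RNA per cell cannot be told apart.

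IGF2, the growth factor best known for its role before birth, differed little between the groups in its bright probe sets. In probe set 1 the boar pools had 5300, 4777 and 5188 and the barrow pools 5635, 4921 and 5209. The groups overlapped, with means of 5088 ± 275.5 and 5255 ± 359.1 (SD over n = 3 pools each). The log2 difference was 0.05, and its 95% interval of -0.12 to 0.21 (limma adjusted p = 0.87) bounds the size of a change that these pools could hide. The next probe sets in signal were set 2 with 2326 ± 127 in boars and 2457 ± 156 in barrows, set 3 with 2042 ± 176.8 and 2065 ± 226.3, and set 4 with 1945 ± 126.5 and 1915 ± 177.1 (SD over n = 3 pools each). Their log2 differences were 0.08, 0.01 and -0.02, all with intervals that stayed within -0.23 to 0.26.

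The other 3 tested probe sets of IGF2 varied more. IGF2 probe set 6 had boar signals of 647, 668.6 and 1083 and barrow signals of 1061, 706.5 and 940.9. Its difference of 0.19 (95% interval -0.25 to 0.63) was the highest of the tested members with all 6 arrays, and boar pool 3 lay above every barrow pool. Leaving out 1 array moved it between 0.06 and 0.43, the lowest without boar replicate 1 (0.07 without barrow replicate 1 and 0.09 without boar replicate 2) and the highest without boar replicate 3 (0.36 without barrow replicate 2). Its array identifier ends in x_at, as does that of set 2, which marks probe sets in which some probes can also match other transcripts. IGF2 probe set 5, annotated to another transcript record than the other 12 probe sets of the gene, had 877.6 ± 36.29 in boars and 933.4 ± 157.8 in barrows (SD over n = 3 pools each) and a difference of 0.07 (95% interval -0.2 to 0.35). IGF2 probe set 7 was the dimmest tested member, at 49.71 to 120.6 in boars and 88.84 to 116.7 in barrows, with a difference of 0.13 and the widest interval of the tested members, -0.51 to 0.76. Over the 7 tested probe sets of IGF2 the limma adjusted p ran from 0.77 to 0.98, with 6 differences above 0.

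Of the 6 untested probe sets of IGF2, none exceeded a signal of 98.47 on any array. In set 10 the groups did not overlap, at 35.04, 40.9 and 26.11 in boars and 58.25, 76.38 and 44.63 in barrows. All 6 of these signals lay under 92.7, the mean signal at which testing began, and they are not shown to exceed background. The lowest mean log2 level of a tested member was 6.8 and the highest of an untested one 6.43, for IGFBP2.

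IGF1 was also set against IGF2 within each array. The log2 ratio of the brightest probe set of IGF1 to that of IGF2, relative to its boar mean, was 0.15, -0.23 and 0.08 in boars and -0.5, -0.11 and -0.62 in barrows. Barrow pool 2 lay above boar pool 2, so this ratio overlapped too. It was chosen after the values were seen and was not tested.

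**Figure D2:**
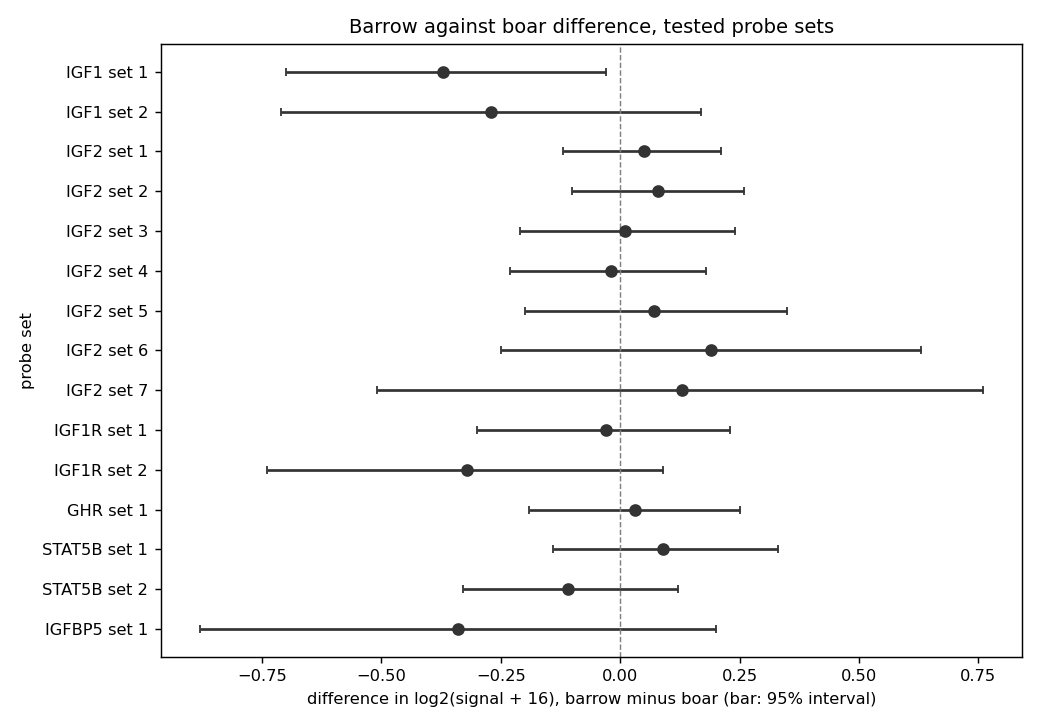
The horizontal axis gives the barrow minus boar difference in log2(signal + 16) for the 15 tested probe sets on the vertical axis, with bars for the 95% interval of the limma model. The interval of 1 probe set, IGF1 probe set 1 with -0.7 to -0.03, leaves out 0 before adjustment over all probe sets, and IGF2 probe set 1 has the narrowest interval.

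Of the receptors, GHR, the growth hormone receptor, was measured by 1 bright probe set. The boar pools had 1985, 2037 and 2282 and the barrow pools 1877, 2370 and 2210. The barrow pools held both the lowest and the highest of the 6 values. The mean was 2101 ± 158.4 in boars and 2152 ± 251.4 in barrows (SD over n = 3 pools each), a log2 difference of 0.03 (95% interval -0.19 to 0.25, limma adjusted p = 0.95).

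IGF1R, the receptor of both IGFs, had 2 probe sets. In the brighter, probe set 1, boars had 463.5, 404.2 and 364.7 and barrows 413.8, 379.8 and 403.3. The barrow pools all lay within the boar range, and the difference was -0.03 (95% interval -0.3 to 0.23, limma adjusted p = 0.95). In the dimmer, probe set 2, boars had 134.1, 148.7 and 149.3 and barrows 137.2, 111 and 91.01. Here 1 barrow pool lay above the lowest boar pool and the other two below all boars, with a difference of -0.32 (95% interval -0.74 to 0.09, limma adjusted p = 0.54). Both IGF1R probe sets had a negative difference, and neither passed.

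STAT5B, which carries the growth hormone signal to the nucleus, had 2 probe sets of similar signal whose differences had opposite signs. Probe set 1 had 710.6, 691.9 and 637.8 in boars and 725.6, 805.6 and 653.2 in barrows, a difference of 0.09 (95% interval -0.14 to 0.33). Probe set 2 had 678.5, 693.6 and 736.8 in boars and 644.2, 708.7 and 603.4 in barrows, a difference of -0.11 (95% interval -0.33 to 0.12). Neither passed (limma adjusted p = 0.8 and 0.73), and their mean had a difference of -0.01. STAT5A, a close paralog, lies next to STAT5B in the RefSeq table (Sscrofa11.1). Whether these probe sets also detect STAT5A was not tested.

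IGFBP5, a binding protein that also attaches to extracellular matrix, had boar signals of 846.3, 673.3 and 735.8 and barrow signals of 770.7, 353.5 and 741.1. Barrow pool 2 stood far below the other 5, and the other barrow pools lay within the boar range. The means were 751.8 ± 87.61 and 621.7 ± 232.8 (SD over n = 3 pools each), a log2 difference of -0.34 (95% interval -0.88 to 0.2, limma adjusted p = 0.64). Without barrow replicate 2 the difference was 0.01 (limma adjusted p = 0.97), so no difference was left when that pool was set aside. IGFBP2, which lies next to IGFBP5 in the RefSeq table, was below the filter, at 43.74, 89.16 and 91.46 in boars and 54.79, 47.7 and 119.9 in barrows. Its groups overlapped.

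The place of barrow pool 2 among the barrows differed by gene. It was the lowest barrow in all 7 tested probe sets of IGF2, in IGFBP5 and in IGF1R probe set 1. It was the highest barrow in both tested probe sets of IGF1, in GHR and in both probe sets of STAT5B. In IGF1R probe set 2 it lay between the other barrows. Of the 15 tested member probe sets it was the lowest barrow in 60% and the highest in 33.3%. Over all tested probe sets it was the lowest barrow in 40.1% and the highest in 35.5%. Most of the IGF2 probe sets share 1 transcript record and all share the 6 arrays, so their common order is that of 1 gene. For IGF2 the gap to the mean of the other barrows was -0.49 to -0.13 on the log2 scale, and for IGFBP5 -1.06. In GHR the gap was 0.22, in STAT5B 0.22 and 0.18, and in IGF1 0.31 and 0.1.

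Some sums of cell type markers set barrow pool 2 apart. The summed signal of 6 tested stromal progenitor and fibroblast markers of 9 listed was 26671 in barrow pool 2, against 34996 and 36463 in the other barrows and 31658 to 34908 in boars. That of 6 tested smooth muscle and pericyte markers of 7 listed was 14242, against 18294 and 18508 in the other barrows and 17768 to 20089 in boars. Of these markers ACTA2, which made up much of the sum (6194 in this pool), TAGLN and PDGFRB were lower here than in any other pool. CNN1 was at 346.9 both here and in boar pool 2, while RGS5 (2565) and KCNJ8 (392.6) lay between the other barrows. Its adipocyte marker sum, 96933, was the highest of the barrows. Of the 6 stromal markers, LUM, DCN, THY1 and MFAP5 were lower in this pool than in any other (MFAP5, a microfibril protein, 2061 against 3308 to 3851). COL3A1, a fibrillar collagen, went the other way, with 606.1 against 309.7 to 541, and DPT, a matrix protein, was at 4324 between the other barrows. The part of these markers in the IGF2 and IGFBP5 values was not tested. None of the tested stromal or smooth muscle markers was called. When blocked by replicate number DPT (-0.32, limma adjusted p = 0.041) and the pericyte channel KCNJ8 (-0.49, limma adjusted p = 0.048) passed, both lower in barrows. The block passed 2.35% of all tested probe sets. Neither list went 1 way between the groups. Of the stromal markers 3 had a difference above 0 (THY1 0.37, COL3A1 0.26 and LUM 0.1) and 3 below. Of the smooth muscle and pericyte markers 2 lay above 0 (CNN1 0.26 and RGS5 0.18) and 4 below.

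**Figure D3:**
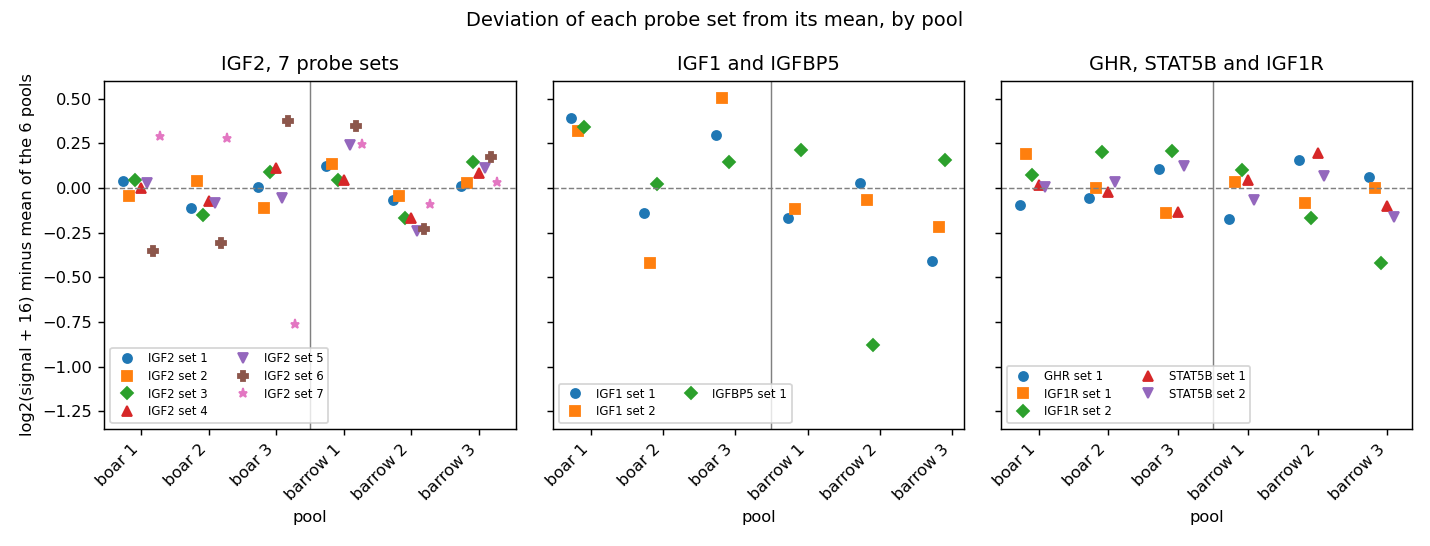
The vertical axis gives log2(signal + 16) minus its mean over the 6 pools and the horizontal axis the pools, in 3 panels by gene. In barrow pool 2 the IGFBP5 point lies far below the rest and each of the 7 IGF2 probe sets lies below its own points in the other barrows, while GHR, STAT5B and IGF1 lie above theirs.

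Of 50 other genes of the axis, 27 had a probe set with their symbol and 19 were tested by their brightest probe set. Of these 19, 0 passed (limma, background 1.16%), 3 had an unadjusted p under 0.05 (15.8%, against 12.2% of all tested), and 13 had a difference below 0, 68.4% against 53.4% of all tested probe sets. The median difference was -0.1. The groups did not overlap in 4 of them, all lower in barrows. Of all tested probe sets 18.1% had no overlap in either direction, and 9.76% had none with barrows lower. When blocked by replicate number 2 of the 19 passed, both lower in barrows, where 2.35% of all tested probe sets passed in either direction.

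Those 2 are from the list of adaptors and effectors. AKT1, a kinase downstream of IGF1R and the insulin receptor, had 2144, 1818 and 1906 in boars and 1586, 1491 and 1403 in barrows. All 3 boar pools stood above all 3 barrow pools, 1956 ± 168.6 against 1493 ± 91.89 (SD over n = 3 pools each). The log2 difference of -0.38 (95% interval -0.58 to -0.18) had a limma adjusted p of 0.083, and of 0.035 when blocked by replicate number. The related kinase AKT2 had a difference of 0.07 (95% interval -0.16 to 0.29).

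GRB10, an imprinted adaptor that binds the insulin and IGF1 receptors and restrains them, had 2011, 2214 and 1953 in boars and 1547, 1733 and 1313 in barrows. These groups did not overlap either, and the difference was -0.43 (95% interval -0.67 to -0.19, limma adjusted p = 0.097, and 0.028 when blocked by replicate number). Without barrow replicate 2 it was -0.52 (limma adjusted p = 0.026), a setting in which 291 of all tested probe sets passed, against 167 with all arrays. Leaving out any other array gave -0.47 to -0.33, with a limma adjusted p of 0.2 to 0.32. Its dimmer probe set also had no overlap, with -0.49 (limma adjusted p = 0.29, and 0.23 with the block). GAB1, a docking protein for growth factor receptors, had -0.19 (95% interval -0.37 to -0.01, limma adjusted p = 0.37), and FOXO1, a factor that AKT holds out of the nucleus, had -0.1 (limma adjusted p = 0.7). Of the 9 tested adaptors and effectors 5 lay below 0 and 4 above. The summed signal of 7 tested endothelial markers of 8 listed was lower in barrows, at 13048 to 13289 against 14169 to 14890 in boars. PECAM1 made up much of this sum, with 6840 to 6992 in barrows and 7418 to 7965 in boars. Of the 7, 1 was called, the angiopoietin receptor TEK (-0.47, limma adjusted p = 0.047), against 1.16% of all tested probe sets. CDH5, the cadherin that defines endothelium, had a difference of 0 and none of the 7 was near 0 in signal. Their part in the AKT1 and GRB10 values was not tested.

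In growth hormone signalling, 6 of 13 listed genes were tested and 0 passed, with differences from -0.36 to 0 in their brightest probe sets. GHRHR, the receptor of growth hormone-releasing hormone, had -0.36 at a low signal of 254.8 ± 68.98 in boars (SD, n = 3; limma adjusted p = 0.63). JAK2, the kinase bound to GHR, had -0.04 (limma adjusted p = 0.95), and 0.15 in its dimmer probe set. The adaptor SH2B1 had -0.18 (limma adjusted p = 0.84), and -0.07 in its dimmer probe set. STAT3 and STAT5A each had -0.1 (limma adjusted p = 0.7 and 0.75). In this brightest probe set of STAT5A the groups did not overlap, at 624.7, 618 and 646.1 in boars and 600.7, 588.8 and 574.8 in barrows. Groups without overlap were found in 18.1% of all tested probe sets. In the dimmer tested probe set of STAT5A the groups overlapped, with a difference of -0.17 (limma adjusted p = 0.71). GH1, SOCS1 and SOCS3, the last 2 being inhibitors of cytokine receptor signalling, were below the filter. The inhibitors SOCS2 and CISH had no probe set with that symbol alone.

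Of the other binding proteins, their partner and the proteases, 3 of 10 listed genes were tested and 0 passed. IGFBP6, which prefers IGF2 as ligand, had signals of 3314, 2691 and 3186 in boars and 3203, 1814 and 3441 in barrows, with barrow pool 2 again the lowest. Its difference was -0.17 (95% interval -0.61 to 0.27, limma adjusted p = 0.8), and 0.03 in its other probe set. Without barrow replicate 2 the difference turned to 0.12 (limma adjusted p = 0.61). STC1, a stanniocalcin, had -0.26 (95% interval -0.53 to 0.01, limma adjusted p = 0.44), and HTRA1, a secreted protease, had 0.16 (limma adjusted p = 0.65). IGFBP1, the partner protein IGFALS and the protease PAPPA were below the filter, and IGFBP7 had no probe set with that symbol.

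Of the receptors on the list, IGF2R had 159.3 ± 21.47 in boars and 133 ± 27.08 in barrows (SD over n = 3 pools each), a difference of -0.24 (95% interval -0.67 to 0.18, limma adjusted p = 0.68). INSR, the insulin receptor, was below the filter in all its probe sets. IRS1, a docking protein of the insulin and IGF1 receptors, was below it too. None of the 6 listed regulators of IGF messages had a probe set with its symbol.

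**Figure D4:**
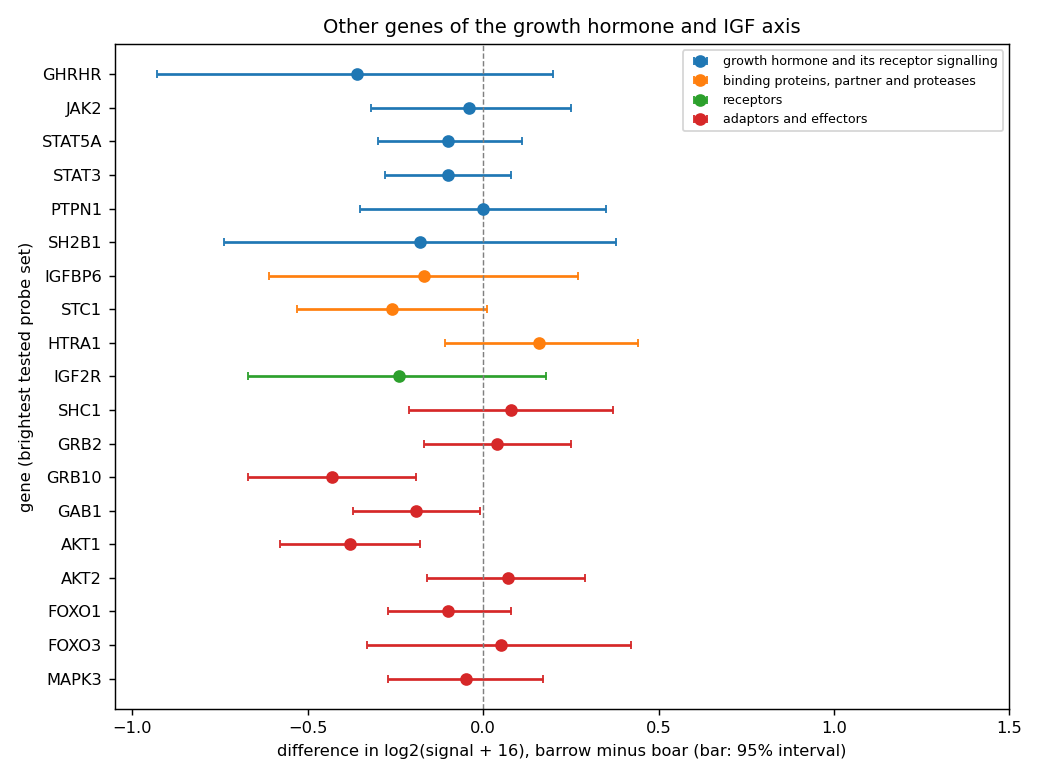
The horizontal axis gives the barrow minus boar difference in log2(signal + 16) for the 19 tested genes on the vertical axis, coloured by role, with bars for the 95% interval of the limma model. The intervals of GRB10, AKT1 and GAB1 lie below 0, and those of the others include 0.

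The genes whose centred log2 signals over the 6 pools lay nearest to a member were found among 5355 named genes. Nearest to IGF1 were the DNA repair gene DDB2, the vitamin transporter SLC5A6 and the Fc receptor FCGR3A, with root mean square differences of 0.07, 0.073 and 0.077, where the median gene had 0.3. Their own barrow minus boar differences were -0.41, -0.43 and -0.3, and none passed (limma adjusted p = 0.42, 0.12 and 0.32). Nearest to IGF2 were KHNYN, ABCF1 and SEPT7 (0.023, 0.027 and 0.028, median gene 0.16), and to GHR they were ERCC8, DDO and MFSD7 (0.029, 0.031 and 0.038, median gene 0.18). The last 6 had differences of 0.01 to 0.06. They were picked as the closest of many genes over only 6 pools and are given as a description.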

How the data were processed

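Expression was measured on 6 arrays, 3 per kind, each from 5 µg of total RNA of a pool of 5 pigs. Per the submitters' processing notes, the authors deposited MAS5 signal intensity values, 1 per probe set and array. The MAS5 version is not given in the sources used here. The mean of each array after trimming 2% from each end was 500.1, a sign of a common scaling, which was kept. Detection calls were not used here, so whether a dim probe set exceeded background is unknown. Precision is limited by the small number of arrays.

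Of 24123 probe sets, the platform annotation gave 1 gene symbol to 10099, several to 198 and none to 13826. The symbols of all 23 member probe sets were found again by gene identifier in the RefSeq table (Sscrofa11.1). The 124 control probe sets were left out. The upper 60% by mean log2(signal + 16) over all arrays, 14399, were tested by limma 3.58.1 in R 4.3.3 (2-sided, eBayes with a trend on intensity). P-values were adjusted over all of them by Benjamini-Hochberg, with a threshold of 0.05. Probe sets of a gene were kept apart, and other axis genes were read by their brightest tested probe set. The procedure was tested on simulated data.

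The members, gene lists and tests were chosen with earlier results of these data known. Named genes were all members, the other axis genes of smallest p in each list and a fixed set of them, and the 3 nearest patterns to IGF1, IGF2 and GHR. Some marker genes, and the ratio of IGF1 to IGF2, were picked after their values were seen.

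Replicate numbers recur in both groups. Deviations from the group means correlated at 0.12, 0.17 and 0.26 for boar and barrow pools of equal number, all above the minimum of 0.1. On that rule the numbers were read as pairing the pools. Pools of different number gave -0.19 to -0.01. Deviations within a group cancel out, so positive values for equal numbers push the others down, and these add no evidence of pairing. Results are nevertheless from the unblocked fit, with the blocked p added for genes it moves across the threshold. The labels do not say what a number shares.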

Additional observations from a re-analysis of the deposited data

How the results depend on the processing

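The 16 alternatives were other pseudocounts, filters, scalings, weights and fits, the replicate block, the mean of probe sets, and leaving out each array. No member probe set passed under any of them, and the count of members stayed at 0 with the replicate block and without each array. The count over all tested probe sets, 167, was 96 without a filter, 32 without the intensity trend, 425 with array weights, 338 with the replicate block and 24 to 291 without one array. For the other axis genes the count of 0 became 2 with array weights, 2 with the replicate block (AKT1 and GRB10 in both) and 0 to 1 without one array. The block changed no other call among the members and these genes.

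Of 229 values of the 15 tested members under the alternatives, 214 kept their direction and 15 changed sign, all with an adjusted p of 0.81 or more. With array weights IGF2 probe set 4 became 0.01 and GHR -0.03, and with the mean of probe sets that of STAT5B became -0.01. Leaving out each array gave -0.01 to 0.09 for IGF2 probe set 1, -0.06 to 0.1 for set 3, -0.07 to 0.05 for set 4, -0.03 to 0.21 for set 5 and -0.22 to 0.3 for set 7. It gave -0.11 to 0.05 for IGF1R probe set 1, -0.04 to 0.12 for GHR and -0.53 to 0.01 for IGFBP5. The cause was not tested, except that IGFBP5 lost its difference with barrow replicate 2. IGF1 kept a negative difference in both tested probe sets throughout, from -0.53 to -0.25 and from -0.55 to -0.08 without one array.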
